A study of Arabidopsis thaliana with 4 samples.

Results

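Protein-coding genes of Arabidopsis thaliana whose bodies carry methylation in all cytosine contexts, the pattern usual for transposons, are described here. A gene was taken as a member when its body, from the start to the end of the TAIR10 RefSeq gene model, held at least 20 CHG sites and at least 20 CHH sites with a methylation level of 0.3 or more in each of 2 mock libraries. The rule found 396 members among 27444 protein-coding genes on the 5 nuclear chromosomes. Members were thus chosen by their mock CHG and CHH values. The assay was EM-seq, an enzymatic alternative to bisulfite sequencing in which cytosines without methylation are converted and read as T, on shoot apices of plants labelled Col-0, for which the methods of the study name the ap1/cal mutant, whose apices overproliferate. The mock group received 0.025% Silwet, a wetting agent, and the SNP group received the same Silwet together with sodium nitroprusside (SNP) at 1 mM, which releases nitric oxide. Both groups were sampled after 24 h, and each had 2 libraries. The methods of the study call them biological replicates, and neither these nor the labels say how the plants were divided between libraries. If they were not separate plants, p-values measure only the spread between these libraries, which may be technical.

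Plants methylate cytosine in the contexts CG, CHG and CHH, where H is any base but G. CG methylation is copied by MET1 at replication, CHG methylation is kept by CMT3 together with histone H3 lysine 9 methylation, and CHH methylation depends on CMT2 and on RNA-directed DNA methylation through DRM2 and AGO4. Bodies of many expressed genes carry CG methylation alone, and the demethylase IBM1 keeps histone H3 lysine 9 methylation and CHG methylation out of them, whereas transposons and other heterochromatin carry all contexts. A gene with methylation of the latter kind may hold a transposon in an intron, derive from a transposon, or lie in heterochromatin.

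The deposited lists hold called sites and no uncalled cytosines. Between 3857352 and 4134559 nuclear sites were listed per library, with a median depth of 8 to 10 reads and at least 2 methylated reads at every site. Members held between 24767 and 27631 CHH sites and between 33540 and 34441 CHG sites at level 0.3 or more per library. Cytosines without coverage and covered cytosines without a call are both missing, so a full loss of methylation cannot be seen. Of the 396 members, 383 had at least 10 CG sites that reached 5 reads in each library and could be tested in CG, 383 in CHG and 332 in CHH.

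The windows below show the densest stretches of non-CG sites in members of different kinds. For each gene, the 120 bp window with the most CHG and CHH sites at level 0.3 or more in all 4 libraries was taken from within an intron or a coding exon. Each is printed 5′ to 3′ on the plus strand of the RefSeq TAIR10.1 assembly. Capitals mark those sites, C for a cytosine of the plus strand and G for one of the minus strand.
RPP7 (AT1G58602), intron, chr1:21749454-21749573: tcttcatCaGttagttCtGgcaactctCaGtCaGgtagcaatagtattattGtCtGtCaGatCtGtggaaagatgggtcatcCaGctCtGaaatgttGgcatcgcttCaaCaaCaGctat
Ta11-like copy AT2G02103, coding exon, chr2:530721-530840: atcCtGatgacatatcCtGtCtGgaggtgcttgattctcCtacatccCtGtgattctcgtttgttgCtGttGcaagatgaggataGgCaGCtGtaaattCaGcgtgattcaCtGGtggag
RKF2 (AT1G19090), coding exon, chr1:6592475-6592594: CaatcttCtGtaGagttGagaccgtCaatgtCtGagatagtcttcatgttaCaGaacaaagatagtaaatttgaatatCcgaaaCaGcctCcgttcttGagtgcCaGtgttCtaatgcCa
AT5G39770, intron, chr5:15920201-15920320: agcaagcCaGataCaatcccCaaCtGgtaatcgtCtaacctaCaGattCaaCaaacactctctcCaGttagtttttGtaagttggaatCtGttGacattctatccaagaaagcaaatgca

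The intron window of RPP7, a resistance gene against downy mildew, held 24 such sites, 12 on each strand. All 20 of its CHG cytosines were among them, at levels of 94.0% and 92.5% in mock and 94.0% and 96.1% in SNP, beside 4 of its 29 CHH cytosines. The coding window of AT2G02103, a remnant of the Ta11 family of LINE retrotransposons, held 18 of 18 CHG cytosines and 4 of 34 CHH cytosines. In the coding window of RKF2, a receptor-like kinase, 13 of 14 CHG and 6 of 28 CHH cytosines were capitals. The window of AT5G39770 had 10 of 10 CHG and 7 of 35 CHH cytosines. In each of the windows, nearly complete CHG marking stood beside sparse CHH marking, in runs of CAG and CTG on both strands. The windows were chosen for their number of such sites, so the dense marking follows from the choice. Depth in the RPP7 window ranged from 3 to 18 reads.

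Since the rule used the mock CHG and CHH counts, these are given as a description. The mean of the mock libraries ranged from 20 to 627.5 CHG sites per member with a median of 65.5, and from 20.5 to 477 CHH sites with a median of 46. Other genes had a median of 0 in both contexts. The members filled the upper corner of the plot of CHG against CHH sites, and genes continued without a gap across both thresholds. Just inside, AT1G34015 had 73 and 72 CHG sites but 20 and 29 CHH sites in mock, AT1G35895 had 20 and 30 CHH sites, and AT1G12020 had 21 and 20 CHG sites. Just outside, AT1G35850 (PUM17) had 19 and 20 CHH sites, AT1G48095 had 28 and 19 CHH sites, and AT1G52110 had 19 CHG sites in both. With a level of at least 0.5 the rule found 171 genes, and with at least 0.2 it found 636.

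**Figure D1:**
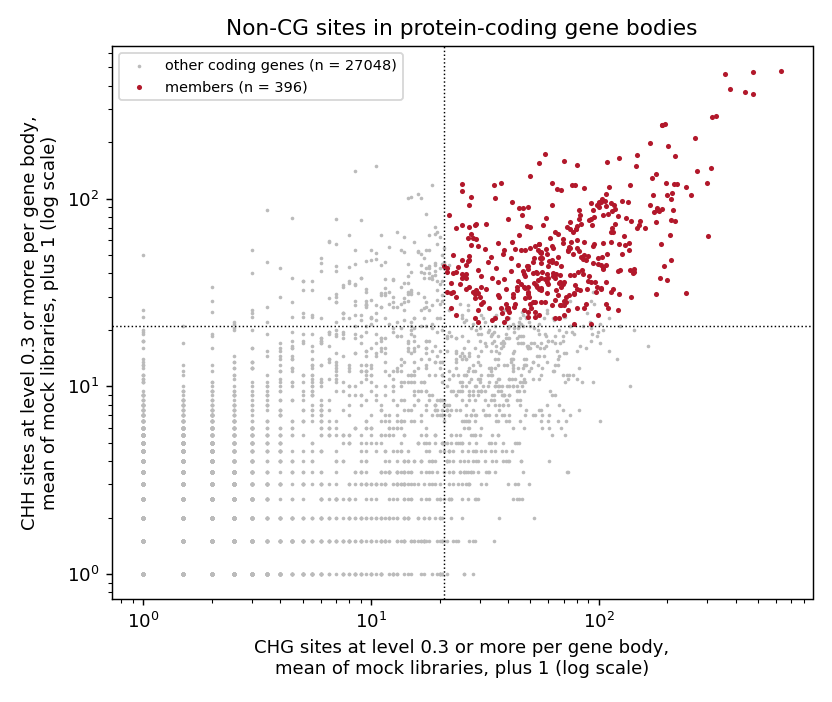
Number of CHG sites (x axis) and CHH sites (y axis) at level 0.3 or more per gene body, mean of the mock libraries plus 1, on log scales, with dotted lines at the thresholds of 20 sites. The 396 members (red) lie on or beyond both lines, with 60 other coding genes (grey) whose mean passed both thresholds while a single mock library did not.

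Of 116 genes annotated as transposon, retrotransposon or reverse transcriptase products, 31 were members, 26.7% of that class, and these made up 7.83% of the members against 0.423% of all coding genes. Among them were 13 of 15 Ta11-like non-LTR retrotransposon genes, all 3 retrotransposon ORF-1 genes and 6 of 12 genes related to RNA-directed DNA polymerase. Both Ta11-like genes outside the rule had the CHG sites but few CHH sites. AT4G04730 had 26 and 25 CHG sites and 2 and 4 CHH sites in mock, and AT5G35737 had 21 and 20 CHG sites and 1 and 5 CHH sites. These gene models measured 423 and 372 bp.

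The Ta11-like members lay on 4 chromosomes, and 6 of 13 were within 3 Mb of the gene-poorest window of their chromosome. Their median levels in mock were 93.2% in CG, 83.9% in CHG and 48.9% in CHH. The CHG levels spanned 78.3% to 94.6%. The copy with the highest, AT5G18636, had 74 and 75 CHG sites in mock and 71 and 64 in SNP.

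All 5 genes annotated as Ulp1 protease family protein were members. Ulp1 proteases cleave SUMO, and related genes are carried by Mutator-like transposons in Arabidopsis. AT5G28810 had 206 and 207 CHG sites in mock and 203 and 202 in SNP, the most of the 5. AT5G28235 had the fewest, with 79 and 81 in mock and 98 and 99 in SNP. The SNP counts of this gene exceeded both of its mock counts, which those of AT5G28810 did not.

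Myosin heavy chain-like proteins gave 10 members among 30 genes with this product, and 8 of the 10 lay within 3 Mb of a gene-poorest window. They had similar levels, with CG levels in mock from 93.8% to 95.2% and CHG levels from 67.4% to 77.5%. AT5G38190 had the most CHG sites of these, 283 and 254 in mock and 281 and 269 in SNP. Genes annotated as general transcription factor 2-related zinc finger proteins gave 6 members of 10, all within 3 Mb of a gene-poorest window. Proline-rich extensin-like genes, which encode structural cell wall proteins, gave 6 of 15, and their median CHG level in mock, 67.5%, was below that of the 4 preceding classes.

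Uncharacterized proteins were the largest class, with 103 members of 2720 such genes. The lists also gave 10 of 193 immune receptors, 15 of 684 F-box proteins, 21 of 573 zinc finger or zinc knuckle proteins and 10 of 934 protein kinases. A gene symbol other than the locus tag was annotated for 62 members (15.7%) and for 37.8% of all coding genes.

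Among genes of the methylation machinery, 0 of 19 were members. DRM2, the CHH methyltransferase of the RNA-directed pathway, came nearest with IBM1. DRM2 had 22 and 16 CHG sites in mock and no CHH sites, while IBM1, known for an intronic heterochromatic patch, had 26 CHG sites in both mock libraries beside 2 and 6 CHH sites. In contrast, 2 paralogs of the maintenance methyltransferase MET1 were members. DMT2 (AT4G14140) had 217 and 223 CHG sites in mock and 220 and 214 in SNP. Its CHH counts were 106 and 131 in mock, against 121 and 133 in SNP, and 87.0% of its non-CG sites were in coding sequence. AT4G08990 had 202 and 210 CHG sites in mock and 215 and 217 in SNP, with 85.0% of its non-CG sites in coding sequence. MET1 itself had 0 CHG and 0 CHH sites in mock.

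Of 7 listed auxin response factor genes clustered near the centromere of chromosome 1, 6 were members. ARF23 (AT1G43950), on the same chromosome but not on the list, was a member as well. These transcription factors bind auxin response elements. The CHG counts of ARF12, ARF14, ARF15, ARF20, ARF21 and ARF22 ran from 89 to 109 over the mock libraries. ARF13 fell short in CHH, with 78 and 84 CHG sites but 6 and 7 CHH sites in mock. ARF21 had 91 CHH sites in each mock library and 113 and 125 in SNP. ARF22 had 92 and 88 in mock and 113 and 120 in SNP. ARF12 had 104 and 88 in mock and 74 and 93 in SNP, so its groups overlapped. ARF15 had 95 in each mock library and 92 and 74 in SNP, so the direction of these counts differed within the cluster. The CHH levels of ARF12, ARF15, ARF20 and ARF21 overlapped between the groups, and those of ARF14 and ARF22 were higher in SNP.

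Of the 8 listed genes known for silencing or intronic heterochromatin, RPP7 and RPP4 were members. RPP7 had the most CHG sites of all members, with 623 and 632 in mock and 630 and 616 in SNP. For CHH, mock 1 had 455 sites, mock 2 had 499, SNP 1 had 549 and SNP 2 had 523, and 96.4% of its non-CG sites lay in introns, where a COPIA retrotransposon is known. RPP4, a TIR-type receptor against downy mildew, had 189 and 175 CHG sites in mock and 178 and 173 in SNP, and 79.8% of its non-CG sites were in coding sequence. Its neighbour in the resistance cluster, SNC1, was outside the rule with 49 and 44 CHG but 6 CHH sites in each mock library, as were RPP5, FWA, SDC and QQS.

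The 10 members with the most CHH sites measured from 3106 bp (AT5G47260) to 19695 bp (RPP7). The methylated stretch lay in coding sequence in some and in introns in others. AT5G39770, annotated as a restriction endonuclease type II-like protein of 32 exons on chromosome 5 (15919241 to 15927549), had 483 and 458 CHH sites in mock and 533 and 520 in SNP. Its non-CG sites were divided between coding sequence (50.4%) and introns (49.6%), and 96.4% of its 100 bp windows held at least 1. Within its span lies AT5G39775, a Gag-Pol polyprotein or retrotransposon gene that was a member as well. How many of the sites fall in AT5G39775 was not tested. AT5G47260, a putative disease resistance gene, was methylated in 100% of its windows, with 95.1% of its sites in coding sequence. AT5G07570, a glycine/proline-rich protein gene, likewise had 98.4% of its sites in coding sequence. In AT3G05410, a PsbP family gene of photosystem II, 99.2% of the sites were intronic. The same held for 99.9% of those in AT2G34100, which overlaps 3 other coding genes, and for 97.3% of those in AT4G22410. Their exons thus carried almost none of the sites. AT4G11373, a serine/threonine kinase gene, had 92.7% in introns with all of its windows methylated.

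Nearly complete CHG marking was found in the 5 members with the largest share of their CHG cytosines listed in both mock libraries. In AT3G26616, an uncharacterized protein gene, this was 43 of 43 cytosines, and 43 and 42 were listed in SNP 1 and SNP 2. AT1G31095 (lactate/malate dehydrogenase domain) reached 98.2%, AT3G30525 (nuclease) 97.4%, and the Ta11-like copies AT2G02103 and AT3G47920 reached 97.3% and 97.1%.

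Members with a symbol included genes with well-studied relatives. RKF2 had 171 and 164 CHG sites and 197 and 198 CHH sites in mock, with 207 and 196 CHH sites in SNP. ADR1-L3, of the helper immune receptors, had 145 and 143 CHG sites in mock and 149 and 148 in SNP. It lies within 1 kb of AT5G47260, and both were members. ABCC13, an ABC transporter gene of 33 exons, had 289 and 310 CHG sites but 58 and 67 CHH sites in mock, so that its CHH share of cytosines (1.25%) was low. Others were the wall-associated kinase gene WAK5, the extensin gene EPR1, the MADS box gene AGL92, and APD3 and APD4, RING-type ubiquitin ligase genes near each other on chromosome 2. UBQ13, a polyubiquitin gene known in Columbia for an insertion of mitochondrial DNA, had 117 and 110 CHG sites in mock in 41.7% of its windows.

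Members lay in gene-poor regions more often than other genes. As a marker of the pericentromere, the 1 Mb window with the fewest coding genes was taken on each chromosome. Within 3 Mb of its centre lay 209 members (52.8%) and 11.6% of all coding genes. The share of genes that were members was 11.7% within 1 Mb, 10.1% between 1 and 2 Mb, 3.65% between 2 and 3 Mb and 0.328% beyond 14 Mb. The median distance was 2.79 Mb for members and 7.87 Mb for other genes, although 131 members lay over 5 Mb away. All chromosomes contributed, with 107, 76, 81, 58 and 74 members on chromosomes 1 to 5. Within 250 kb of a member lay a median of 101 coding genes, against 135 for other genes. An annotated pseudogene was found within 5 kb of 216 members (54.5%) and of 17.0% of all genes, and inside 16 members (4.04%) against 0.543%.

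**Figure D2:**
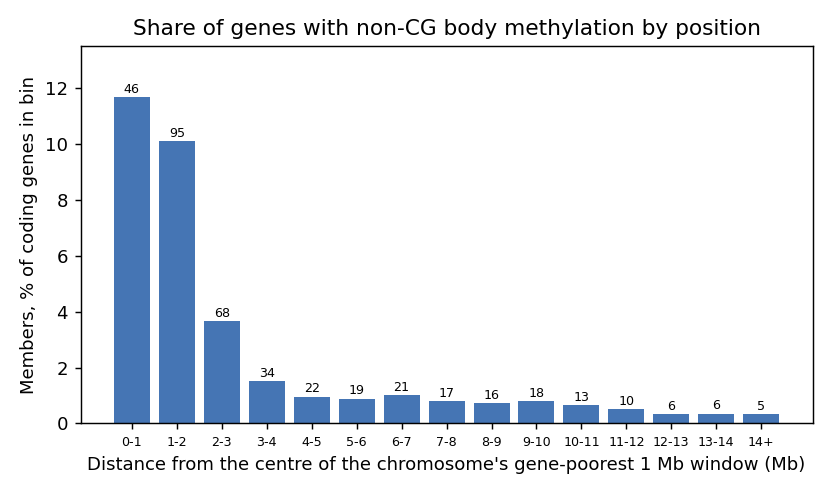
Members as a percentage of coding genes (y axis) by distance in Mb from the centre of the gene-poorest 1 Mb window of the chromosome (x axis), with the number of members above each bar. The share was 11.7% in the nearest bin and 0.328% beyond 14 Mb.

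Members also neighboured each other. For 95 members (24.0%) a coding gene next to them on either side was a member as well, as it was for 2.81% of all genes, and consecutive members formed 46 runs. In the run of AT5G39770 and AT5G39775, the latter lies within the span of the former, so sites there count for both. The longest run comprised 5 genes from AT1G43720 to AT1G43770 on chromosome 1 (16495080 to 16551909), a stretch of 56830 bp with an uncharacterized protein, a nuclease, a reverse transcriptase-related protein, a DNase I-like protein and a RING/FYVE/PHD zinc finger protein gene. Over all members the median length was 2082 bp, against 2078 bp in other genes, and the median GC content was 39.3% against 38.9%.

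Along the gene, the sites were not restricted to the body. The median member had 87.1% of its 100 bp windows occupied by a non-CG site, 237 members had at least 80% and 23 had under 20%. Coding sequence held over 50% of the sites in 240 members, introns in 107 and UTR exons in 30. The rule counted such sites in the body, so their share there, and its contrast with other genes, is fixed by the choice of members in CHG and CHH. Over all members, 66.6% of CHG cytosines in the middle of the body were listed at 0.3 or more in mock, 49.6% in the kilobase upstream and 49.2% in that downstream. Between 1 and 2 kb upstream the share was still 39.1%. Other coding genes had 0.872% in the middle of the body and 5.51% in the upstream kilobase. CHH followed the same course at a lower share, with 9.63% in the middle of member bodies and 7.28% upstream. In CG the middle of the body reached 77.8% in members and 24.1% in other genes.

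**Figure D3:**
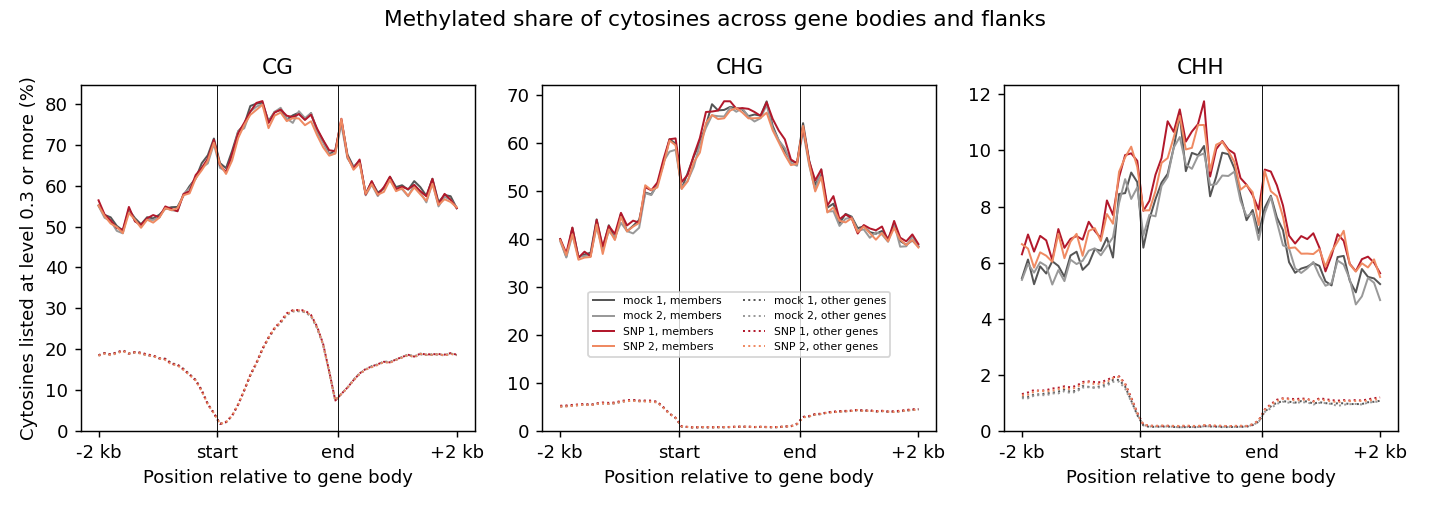
Percentage of CG, CHG and CHH cytosines listed at level 0.3 or more (y axes) from 2 kb upstream to 2 kb downstream of genes (x axis, bodies scaled to 20 bins), for members (solid) and other coding genes (dotted) in the 4 libraries. The member curves for CHG and CHH inside the body follow from the rule, at 66.6% of CHG cytosines in mock. The flanks, which the rule did not use, were at 49.6% and 49.2%.

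Both non-CG contexts differed by the bases next to the cytosine. In members 67.0% of CAG and 68.1% of CTG cytosines were listed at 0.3 or more in mock, but 44.0% of CCG. Among CHH cytosines, CAA (22.0%) and CTA (22.4%) stood above CTC (6.63%) and CTT (4.72%), and CCT was lowest at 1.81%. The order was kept in SNP, where CAA reached 23.7%, CTA 24.0% and CCT 1.99%. In other genes the shares in mock 1 were 0.246% for CAA and 0.296% for CTA. Preference for CAA and CTA is known from CMT2 targets, and for CAG and CTG over CCG from CMT3 targets.

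The level within listed sites was taken as methylated reads over all reads where each of the 4 libraries had 5 reads or more. It leaves out cytosines without a call. Over genes the median was 93.3% in CG, 74.2% in CHG and 42.4% in CHH in mock. CG levels were narrowly distributed, from 91.3% to 94.3% between the quartiles. CHG levels spread from 69.7% to 78.6% and CHH levels from 37.2% to 46.8%. Other genes had medians of 86.4% in CG, 62.1% in CHG and 38.7% in CHH, at their listed sites. Without sites over 50 reads, the summed CHH level of members was below that of other genes in each library. The gap was -1.68 and -0.261 points in mock and -0.835 and -0.858 in SNP.

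Several members had extreme depth. AT2G08986, AT1G40104 and AT2G07981, uncharacterized protein genes within 1.5 Mb of the gene-poorest windows of chromosomes 2 and 1, had a mean depth at listed sites of 134 to 271 reads. Together they held 83.0% of the CHH reads of all members, 24.6% of the CG reads and 12.1% of the CHG reads. Their CHH levels were low, at 8.91% and 10.7% in mock and 9.93% and 9.48% in SNP for AT2G08986. Whether reads from other copies were placed on these genes was not tested. Summed over reads, the CHH level of all members was 15.8% ± 1.18 (SD, n = 2) in mock, and 44.2% ± 0.547 once sites over 50 reads in any library were left out.

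Most members met the rule in SNP libraries too. Of the 396, 387 met it in SNP 1, 384 in SNP 2 and 376 in both. The remaining 20 were close to the thresholds in mock, with a median of 21 sites in their smallest mock count and at most 28. In 16 of them CHH fell short in a SNP library and in 4 CHG did. ADR1-L1, a helper immune receptor gene, had 22 and 20 CHG sites in mock and 21 and 18 in SNP. AT5G28040, a storekeeper-related regulator gene, had 22 and 20 CHH sites in mock and 13 and 12 in SNP. Conversely, 73 genes met the rule in both SNP libraries without being members, 66 of them short of CHH in mock. Counting in single libraries, 461 genes passed in each mock library, 520 in SNP 1 and 500 in SNP 2.

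CG was not used to choose members and could be tested. Summed over members, the CG level was 88.8% in both mock libraries, 88.1% in SNP 1 and 88.3% in SNP 2, which is a difference of -0.609 percentage points with a pooled replicate SD of 0.134. The groups did not overlap. Other coding genes had a CG level of 80.4% ± 0.501 in mock and 77.5% ± 0.438 in SNP (n = 2 each), a difference of -2.86 points. Without sites over 50 reads, the difference was -0.564 in members and -2.80 in other genes. The lead of members over other genes was then 4.74 points in each mock library, 7.08 in SNP 1 and 6.85 in SNP 2, without overlap between the groups. No test was made of this lead. The median change of the odds was -0.05 on the log2 scale for members and -0.35 for other genes tested. Whether a ceiling near 100% has a part in the smaller change of members was not tested.

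Gene by gene, the SNP values in CG were both below the lower mock value for 92 of the 383 members (24.0%), where the same was seen in 46.3% of the 10924 genes tested. They were both above the higher mock value in 75 members (19.6%), against 5.99% of all. Where every library had 5 to 11 reads, the members' CG level was 93.1% ± 0.224 in mock and 93.2% ± 0.165 in SNP, so that the small difference was not found there. Mean depth at member CG sites of at most 50 reads was 10.6 and 9.90 reads in mock and 9.92 and 9.23 in SNP.

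**Figure D4:**
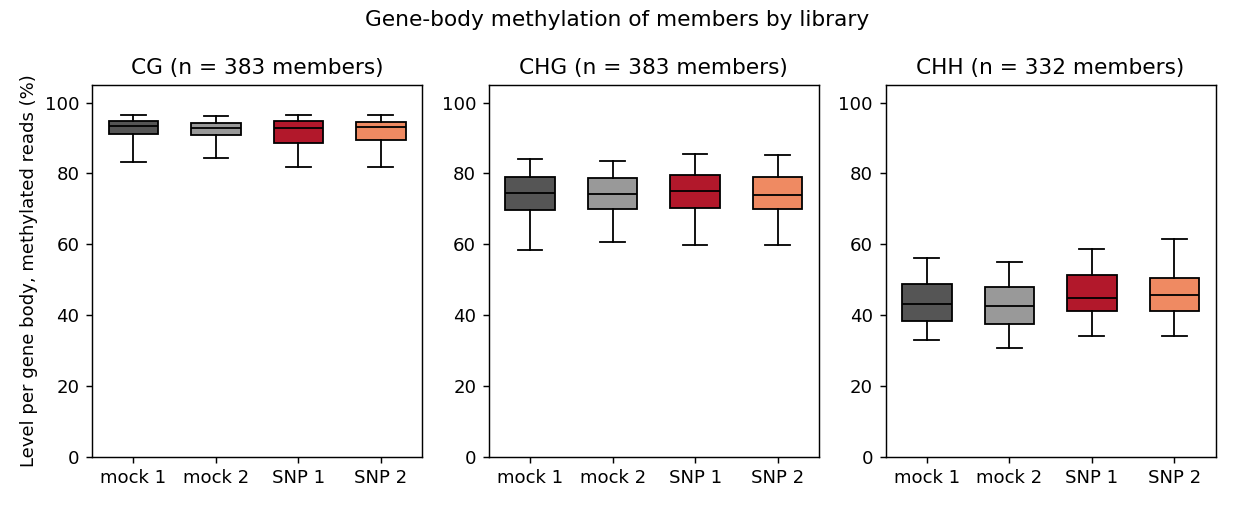
Methylation level per gene body in percent (y axis) of members with at least 10 sites, by library (x axis), in CG (383 members), CHG (383) and CHH (332). Boxes span the quartiles, lines inside mark medians and whiskers run from the 5th to the 95th percentile. CG boxes lie highest, CHH boxes lowest, and boxes of mock and SNP libraries overlap in each context.

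By edgeR's quasi-likelihood test with Benjamini-Hochberg adjustment over all 10924 genes, 27 members passed 0.05 in CG, 26 lower and 1 higher in SNP. The share of members lower was 6.79%, beside 5.36% of all genes tested. Higher calls made up 0.0275% of all genes, and both directions 5.38%. Within 3 Mb of the gene-poorest windows 8 of 203 members were called (3.94%), beside 5.01% of all genes tested there, and beyond 3 Mb 19 of 180 (10.6%), beside 5.45%. This difference with distance was not tested. limma on log2 odds called 0 members and 0 of all 10924 genes tested. At an unadjusted limma p under 0.05 were 46 of 383 members and 1929 of all genes. With 10 reads per site, edgeR called 0 of 57 members and 0 of all 1541 genes tested. At an unadjusted edgeR p under 0.05 were 8 of these members and 221 of all genes. Leaving out SNP replicate 1 left 13 calls and leaving out mock replicate 1 left 17.

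AT4G03570, a gene of the cystatin superfamily of protease inhibitors on chromosome 4 (1590413 to 1594105), gave the smallest p. Its CG level was 92.4% and 92.6% in mock and 75.6% and 78.4% in SNP over 56 sites (log2 odds ratio -1.87, edgeR adjusted p = 1.36e-05). Both SNP libraries were more than 10 points below both mock libraries. Over the edgeR and limma alternatives its adjusted p ranged from 6.72e-10 to 0.123.

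AT5G28463, an uncharacterized protein gene, had 96.2% and 94.1% in mock and 88.1% and 86.1% in SNP (edgeR adjusted p = 4.49e-05). AT1G56100, a gene for an inhibitor of invertase or pectin methylesterase, had 92.2% and 94.5% in mock and 81.4% and 75.3% in SNP (edgeR adjusted p = 4.9e-05). AT5G15360 had 94.5% and 94.1% in mock and 83.9% and 85.6% in SNP. The groups did not overlap here, and the replicates lay closer to each other than to the other group. AT2G37370, a centrosomal protein-like gene, had 95.3% and 95.5% in mock and 85.5% and 85.1% in SNP. CYP705A32, a cytochrome P450 gene, had 92.2% and 94.1% in mock and 80.5% and 83.6% in SNP. AT3G49230 had 91.6% and 95.2% in mock and 76.5% and 78.5% in SNP (edgeR adjusted p = 0.00125). Each of these genes passed in 8 of the 9 edgeR and limma alternatives that tested it, the exception being limma.

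AT3G10950, a zinc-binding ribosomal protein gene, had 97.2% and 95.7% in mock but 71.3% and 86.4% in SNP over 20 CG sites, a drop whose size differed between the SNP libraries. It was also called in CHG, with 84.0% and 86.1% in mock and 69.0% and 71.1% in SNP (edgeR adjusted p = 0.0012). The rule used the mock CHG counts, so this is a description.

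The other members called lower in CG included WAK5, the fucosyltransferase gene FUT9, the pollen receptor-like kinase gene PRK2A, the phenylalanine ammonia-lyase gene PAL4, and the Ta11-like copies AT4G02000 and AT5G51195. The libraries of AT5G51195 overlapped, with 97.5% and 94.0% in mock and 94.0% and 82.4% in SNP, so that SNP 2 alone was low. AT4G02000 had 92.6% and 92.2% in mock and 81.7% in both SNP libraries (edgeR adjusted p = 0.0457). PAL4 had 94.1% and 93.9% in mock and 86.5% and 89.3% in SNP (edgeR adjusted p = 0.03). The gene called higher was AT2G06845, related to beta-galactosidases, with 93.1% and 91.2% in mock and 96.5% and 94.5% in SNP (edgeR adjusted p = 0.0445). Its libraries did not overlap between groups, although the difference of 3.36 points was smaller than in any member called lower.

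**Figure D5:**
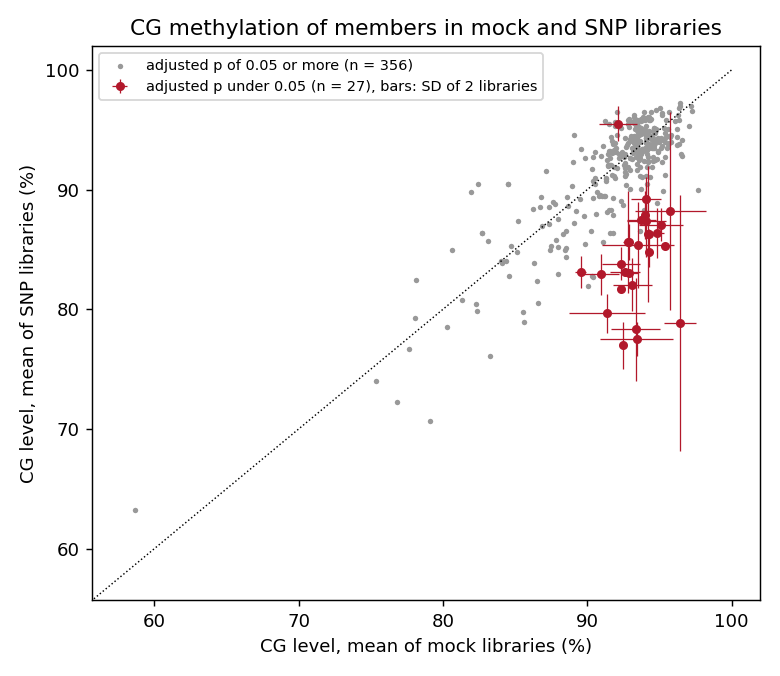
CG level per member in percent, mean of the mock libraries (x axis) against mean of the SNP libraries (y axis), with the dotted line of equality. The 27 members called by edgeR (red, bars are SDs of 2 libraries) lie at 89.5% or more in mock, and 26 of them lie below the line.

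CG sites of members were further divided by whether their 100 bp window held a non-CG site in both mock libraries. In windows with such a site, the CG level was 93.2% ± 0.279 in mock and 92.8% ± 0.0186 in SNP, a difference of -0.444 points over 20792 sites. Windows without one had 85.5% ± 0.0994 in mock and 84.1% ± 0.220 in SNP, a difference of -1.45 points over 2343 sites. For other coding genes the differences were -2.20 and -2.84 points. The members called lower were low in both kinds of window, from 93.7% to 84.9% in windows with non-CG sites and from 86.8% to 78.2% in those without, a comparison that the calls themselves fix in direction. Their median CHG difference was -5.31 points, and that of the members not called lower was 1.18.

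In CHG, the summed level of members was 70.9% and 71.3% in mock and 71.8% and 71.6% in SNP, which differ by 0.570 points (pooled SD 0.234). The summed CHH level was 15.8% ± 1.18 (SD, n = 2) in mock and 16.4% ± 0.226 in SNP, a difference of 0.559 points with a pooled SD of 0.852. These groups overlapped, and without mock replicate 1 the difference was -0.278 points. For CHH without sites over 50 reads it was 44.5% and 43.8% in mock and 46.7% and 47.0% in SNP, a difference of 2.71 points. The groups did not overlap in CHG, or in CHH at these sites. Other coding genes had a CHH difference of 2.59 points on the same sites. Since the mock values chose the members, these differences are a description. Depth moved with them, at a mean of 11.4 and 10.6 reads per CHH site in mock and 10.5 and 9.86 in SNP. A listed site needs at least 2 methylated reads, which is a higher level at lower depth. When sites with 5 to 11 reads were thinned to 5 reads and kept with at least 2 methylated reads in every library, the CHH levels were 61.3% and 60.7% in mock and 62.4% and 63.7% in SNP. The difference was 2.08 points over the 1085 sites kept. Whether depth has a part in the CHH difference over all members was not tested.

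Shares of members with non-overlapping CHH levels were near those of all genes tested. The SNP values were both above the higher mock value in 125 of 332 members (37.7%), beside 34.4% of the 575 genes tested, which include these members. They were both below in 26 members (7.83%), beside 8.52% of the genes tested. Members beyond 3 Mb from the gene-poorest windows had a CHH level of 46.4% ± 1.04 in mock and 49.2% ± 0.450 in SNP. Those within 3 Mb, which include AT2G08986, AT1G40104 and AT2G07981, had 11.5% and 13.3% in mock and 12.7% in both SNP libraries, with overlapping groups. Among members with at least 30 CHH sites, the largest positive differences were in AT1G32270 (ATSYP24), a syntaxin gene, AT5G45570 and AT3G52700. AT5G45570, an Ulp1 protease family gene, had 44.8% and 43.7% in mock and 56.9% and 54.6% in SNP. ATSYP24 had 51.7% and 40.5% in mock and 55.9% and 58.1% in SNP, so its mock libraries differed by more than the groups did from each other at their nearest. The lowest differences were in AT4G03380, AT4G11340 and AT2G14265. AT4G03380, an uncharacterized protein gene with 96.9% of its sites in introns, had 70.1% and 67.6% in mock and 57.3% and 58.1% in SNP. AT4G11340, a TIR-type resistance gene, had 57.8% and 54.0% in mock and 52.7% and 41.2% in SNP.

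By edgeR, 0 of 332 members were called in CHH, beside 0.174% of the 575 genes tested. An unadjusted edgeR p under 0.05 was reached by 33 members, beside 63 of the 575 genes. Fisher's exact test on pooled reads gave 56 members (16.9%), beside 18.6% of all genes tested. Its calls were counted only where the levels of the groups did not overlap, and the test itself takes no account of replicate spread. In CHG edgeR called 2 of 383 members, AT3G10950 and the Ta11-like copy AT3G47920, both lower in SNP, beside 0.184% of 1087 genes tested. AT3G47920 had 85.9% and 85.0% in mock and 75.6% and 71.0% in SNP (edgeR adjusted p = 0.0441). ABCC13 was just short, with 74.3% in both mock libraries and 67.2% in both SNP libraries (edgeR adjusted p = 0.0553). Nothing is read from these calls, because the rule used the same mock counts.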

How the data were processed

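The authors made EM-seq libraries with the NEBNext kit, sequenced them in 75 paired end mode on a NextSeq 550 and extracted methylated cytosines with Bismark; FastQC and TAIR10 are named in the submitters' processing notes, and versions are not given in the sources used here. The deposited lists give for each called site its level as a fraction and its depth as a count of reads. Whole methylated reads gave back the listed level within 0.00011 in 100% of nuclear rows, and 100% of nuclear positions fell on a cytosine of the RefSeq assembly. Organelle sites were not used.

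The members and gene lists were chosen with earlier results of these data known. Groups come from the labels. Levels are methylated over all reads at sites that reached 5 reads in each library. The printed windows include sites with as few as 3 reads. The 10-read minimum of the study was an alternative because few sites reach it. Methylated and unmethylated counts per gene body with at least 10 such sites were tested with edgeR 4.0.16 (R 4.3.3, limma 3.58.1) in each context with library-specific coverage terms and Benjamini-Hochberg adjustment over all genes tested, after a test on simulated data. Group differences of summed levels are SNP minus mock beside the pooled replicate SD and carry no p. Members named are the 10 with most CHH sites, the 5 with the largest CHG share, 12 with a symbol by CHG sites, the 3 just inside and 3 just outside the rule, the 8 with the smallest adjusted p in CG, the extremes of the CHH difference and those on the lists; other genes named (AT4G08990, AT5G28040, ADR1-L1 and further members of product classes or of the called sets) were chosen after their values were seen. The division of CG sites by window and the thinning were also chosen after seeing the data. Replicate numbers were not taken as pairs. Alternatives changed depth limits, rule thresholds, tests and libraries. Intervals for counting error were not computed, and precision is given by the spread of 2 libraries.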

Additional observations from a re-analysis of the deposited data

How the results depend on the processing

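The number of member genes was 171 and 636 at level limits of 0.5 and 0.2, 735 and 176 with 10 and 40 sites per context, 130 with sites of at least 10 reads and 242 with exonic sites, and 461 without either mock library. The CG difference over members was -0.926 points with 10 reads, -0.462 as a mean of sites, -0.783 as a mean of genes and -0.167 for members at level 0.5, and it turned to 0.142 at 5 to 11 reads and 0.0502 when these were thinned. Leaving out a library gave -0.743 to -0.475 in CG, 0.359 to 0.780 in CHG and -0.278 to 1.40 in CHH, where the sign turned without mock replicate 1. The CHG difference was 0.335 with 10 reads. The CHH difference, 0.559 over all sites, was 2.71 at no more than 50 reads, 2.24 as a mean of sites, 2.46 as a mean of genes, 2.58 for members at level 0.5, 2.73 without the 3 deepest members, 2.18 at 5 to 11 reads and 2.08 thinned. Calls among members in CG were 83 by Fisher's exact test of summed reads, 0 with 10 reads, 0 by limma, and 13 to 22 with a library left out. By Fisher's exact test this was 21.7% of members beside 29.4% of all genes tested. In CHG they were 46 by Fisher's exact test, 12% of members beside 10.2% of all genes tested. At no more than 50 reads they were 4 (1.04% beside 0.467%), and by limma 0 of members and of all genes. With 10 reads 0 of 64 members were called, beside 5 of 106 genes tested (4.72%). They were 1 at all listed sites (0.253% beside 0.0799%) and 4 with no minimum of sites (1.01% beside 0.798%). In CHH they were 56 by Fisher's exact test. The causes were not tested. With the replicate number as a block, members called were 26 in CG, 0 in CHG and 1 in CHH. Over all genes tested the shares were 5.14%, 0% and 1.57%. Deviations of libraries with the same number correlated at -0.00839, -0.00556 and -0.0613, so the numbers were not taken as pairs.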
